A study of Mus musculus with 5 samples.

Results

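The genes described here are 10 that build or mineralize bone matrix: *Sp7*, *Bglap*, *Bglap2*, *Ibsp*, *Spp1*, *Dmp1*, *Phex*, *Ifitm5*, *Alpl* and *Mepe*. They were chosen by symbol from the 32285 genes in the count matrices, and each symbol matched a row of its own. Single-cell RNA was counted in 5 libraries of mice labelled C57BL/6N. These were 3 libraries of the penis at postnatal day 6, 1 of the forelimb and 1 of the hindlimb, the limbs at embryonic day 15. No genotype or treatment differed between them. Per the study's methods the penis libraries were of the male glans with the prepuce removed, and the limbs came from male embryos. Those methods give the mice as C57BL/6J, which differs from the labels. The mice came from more than 1 litter, and which mouse is behind each penis library is not in the labels, so p-values measure only the spread between these libraries. Both limbs were dissected from one set of embryos, so the 2 limb libraries may share embryos and may not be independent. Tissue and age differed together and cannot be told apart.

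Bone forms when osteoblasts lay down a collagen scaffold and then let calcium phosphate crystals grow in it. RUNX2 and then SP7 (osterix) commit precursor cells to this work, and the cells go on to make alkaline phosphatase, bone sialoprotein, osteopontin and, late, osteocalcin. Cartilage cells that enlarge before bone replaces them make several of the same proteins, and osteocytes buried in bone make DMP1, MEPE and PHEX, which bear on phosphate balance. The mouse penis holds a bone of its own, the baculum, and limb bones arise within cartilage models.

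The cells kept numbered 6788, 7085 and 5708 in penis libraries 1, 2 and 3, 22057 in forelimb and 20514 in hindlimb. Median unique molecular identifiers (UMIs, each taken as 1 captured RNA molecule) per cell were 8792 to 9909 in penis and 5358 and 6057 in limb. Levels below are CPM, the UMIs of a gene per 1000000 UMIs of all genes in the cells summed. Median mitochondrial shares were 2.20 to 2.32% in penis and 3.68 and 3.84% in limb. The limb libraries had 203 barcodes each, and the penis libraries 58 to 88, whose sequence also occurred in another library. No doublet caller was run.

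Cells were sorted into gates by marker genes that include none of the 10. The bone gate asked for *Runx2* and at least 3 of 9 markers (among them *Dlx5*, *Smpd3*, *Pth1r*, *Cgref1*, *Kazald1*, *Col22a1*, *Col13a1*, *Creb3l1*). Cells past the bone gate and no other are called bone-gated. Those past the bone and chondrocyte gates and no other form a group of their own, and mesenchyme-gated cells held at least 6 of 10 mesenchymal markers and passed no other gate. There were 112, 109 and 92 bone-gated cells in the penis libraries, 190 in forelimb and 144 in hindlimb, with *Runx2* at 430 to 585 CPM in penis and 254 and 265 CPM in limb. They made up 1.65, 1.54 and 1.61% of penis cells against 0.861 and 0.702% of limb cells, a difference of 0.818 percentage points between means of 1.60 ± 0.0567 (SD, n = 3) and 0.782 ± 0.113 (SD, n = 2). The groups did not overlap, and the two-sided exact permutation p was 0.1, the smallest that 3 against 2 libraries allow. The gate is a range rather than a type. Of the 177, 174 and 139 penis cells past it, whatever else they passed, 77, 93 and 68 held exactly 3 markers and 39, 34 and 28 held 5 or more. Of 359 such forelimb and 328 hindlimb cells, 274 and 255 held exactly 3, and 28 and 19 held 5 or more. Limb cells thus lay nearer the minimum of the gate, and the part of this in the differences below was not tested. A deeper cell can show more markers. Median depths of bone-gated cells were 11437.5 to 12691.5 UMIs in penis and 8491.5 and 9301.5 in limb. The shares of bone-gated cells were not thinned, and the part of depth in them and in the marker counts was not tested. With 1 marker fewer asked of every gate, the difference in the share of bone-gated cells turned to -0.652 points.

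The upstream sequences of 5 members are shown. Those found for *Alpl*, *Ifitm5* and *Mepe* are not, so the 5 shown are no sample of the members. The sequences shown are the 250 bases before a RefSeq transcription start in GRCm38.p6, 5′ to 3′ on the gene's strand, with ACCACA or its reverse complement TGTGGT in capitals. These are the core letters of the RUNX binding site, the only motif searched, on both strands. Gene positions given below are from GENCODE, and the windows of *Ibsp*, *Phex* and *Dmp1* reach into them. *Bglap* and *Spp1* are high in bone-gated penis cells, *Dmp1* lies beside *Ibsp* and *Spp1* on chromosome 5, and *Phex* is the member that was lower in penis.
*Bglap*, chr3:88384467-88384716, minus strand: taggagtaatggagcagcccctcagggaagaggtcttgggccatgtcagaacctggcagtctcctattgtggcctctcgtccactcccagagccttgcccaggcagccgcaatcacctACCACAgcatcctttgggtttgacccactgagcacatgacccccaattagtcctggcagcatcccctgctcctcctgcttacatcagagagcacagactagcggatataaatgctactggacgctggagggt
*Spp1*, chr5:104434861-104435110, plus strand: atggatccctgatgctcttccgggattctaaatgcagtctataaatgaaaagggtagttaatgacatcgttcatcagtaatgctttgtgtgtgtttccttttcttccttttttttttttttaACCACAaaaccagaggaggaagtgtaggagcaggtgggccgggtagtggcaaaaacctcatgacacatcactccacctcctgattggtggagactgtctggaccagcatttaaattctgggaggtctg
*Dmp1*, chr5:104202367-104202616, plus strand: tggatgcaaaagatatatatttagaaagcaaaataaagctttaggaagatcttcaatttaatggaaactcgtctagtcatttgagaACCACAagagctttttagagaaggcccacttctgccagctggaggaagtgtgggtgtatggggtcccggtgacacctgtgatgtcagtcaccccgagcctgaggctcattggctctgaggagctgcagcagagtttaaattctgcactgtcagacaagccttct
*Ibsp*, chr5:104299037-104299286, plus strand: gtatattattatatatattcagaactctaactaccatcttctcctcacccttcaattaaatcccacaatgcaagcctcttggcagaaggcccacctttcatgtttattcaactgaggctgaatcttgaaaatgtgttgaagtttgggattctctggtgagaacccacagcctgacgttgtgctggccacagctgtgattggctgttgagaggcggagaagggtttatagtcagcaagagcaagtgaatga
*Phex*, chrX:157415287-157415536, minus strand: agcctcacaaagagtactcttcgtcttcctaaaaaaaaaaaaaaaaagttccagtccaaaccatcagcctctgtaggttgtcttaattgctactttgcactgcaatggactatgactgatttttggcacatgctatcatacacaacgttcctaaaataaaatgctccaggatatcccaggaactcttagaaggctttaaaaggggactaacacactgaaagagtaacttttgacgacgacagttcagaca
The letters begin 132 bases before the start in *Bglap*, 128 in *Spp1* and 164 in *Dmp1*. Of 11 upstream sequences found for 8 members, 4 held them, against 4614 of 32851 (14.05%) of all genes' sequences of this length. *Mepe* held them at 118 and 80 bases before its start. The windows shown for *Ibsp* and *Phex*, and those of *Ifitm5* and *Alpl*, did not hold these letters, nor did a second listed start of *Spp1* and of *Dmp1*.

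*Dmp1*, *Ibsp*, *Mepe* and *Spp1* follow each other on the plus strand of chromosome 5 (chr5:104202613-104441050, GRCm38), 238438 bases that hold 4 protein-coding genes, those 4. They encode a family of acidic, secreted matrix proteins. *Bglap*, *Bglap2* and *Bglap3* lie within 15849 bases of the minus strand of chromosome 3 (chr3:88368616-88384464). The *Bglap* and *Bglap2* transcripts are close copies: 212 of the 351 possible 90-base windows of *Bglap* (60.4%) also occur in *Bglap2*. The split of UMIs between the osteocalcin copies is therefore uncertain.

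Summed over whole libraries, 6 of the 10 genes were called higher in penis and 1 lower, against 13.0% and 11.5% of the 21723 genes tested. A call needed an adjusted p under 0.01 in edgeR's quasi-likelihood test, Benjamini-Hochberg adjusted over all genes tested, and an absolute log2 fold-change above 1, and changes are given as log2 fold-change ± SE. In such sums, more cells of a type and more RNA per cell cannot be told apart. In bone-gated cells 5 genes were called higher and 0 lower, against 9.15% and 6.92% of 11590 genes. Genes pass the filter on low counts through the group where they are high, so these counts are given as a description. *Mepe* did not pass the filter in either comparison. At equal depth, with each cell thinned to 2000 UMIs, the share of all cells with a UMI was above both limbs in every penis library for 7 genes and below both for 1, *Phex*, against 35.5% and 32.5% of 28369 genes. In bone-gated cells these counts were also 7 and 1, against 20.4% and 22.7% of 21629 genes, but 3 and 1 with 1 marker more in each gate and 8 and 0 when thinned to 1000 UMIs.

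**Figure D1:**
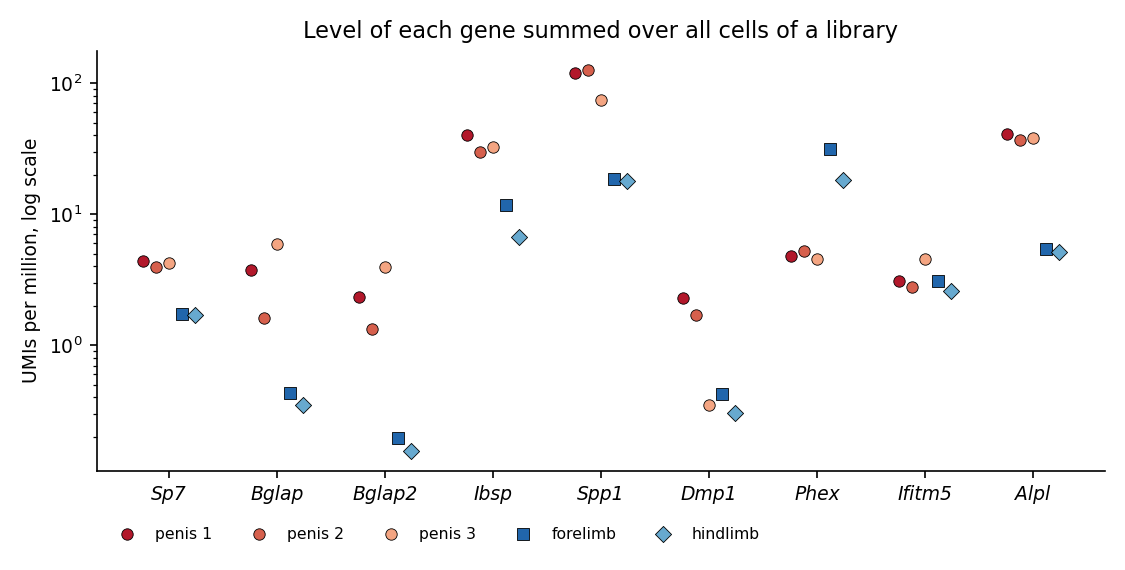
Level of each gene in each library, summed over all cells kept, as CPM on a log axis, with a point for each of the 3 penis libraries, the forelimb and the hindlimb. The penis points lie above both limb points for 6 genes and below both for *Phex*, and they overlap for *Dmp1* and *Ifitm5*. *Mepe* is left out.

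*Sp7* (chr15:102356606-102367182, minus strand), the transcription factor that commits cells to the osteoblast lineage, was at 4.41, 3.95 and 4.21 CPM in penis, 1.74 in forelimb and 1.71 in hindlimb. All penis libraries were above both limbs, by a log2 fold-change of 1.22 ± 0.10 (edgeR adjusted p = 1.29e-05). In bone-gated cells *Sp7* was at 16.4, 19.7 and 17.2 CPM in penis and 10.6 and 6.69 CPM in limb. These groups did not overlap either, but the log2 difference of 1.01 ± 0.31 did not pass the call (adjusted p = 0.0205).

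Most *Sp7* cells lay outside the bone gate. Of the 249, 235 and 190 penis cells with an *Sp7* UMI, 53.6 to 64.7% were mesenchyme-gated, close to the 56.9 to 58.6% of all penis cells in that gate, and 173 to 219 per library held exactly 1 *Sp7* UMI. In mesenchyme-gated cells *Sp7* was at 4.11, 3.21 and 3.94 CPM in penis against 1.24 and 0.968 CPM in limb, with no overlap and a log2 fold-change of 1.74 ± 0.18 (edgeR adjusted p = 2.32e-05). *Runx2*, the earlier factor of the lineage, had a UMI in 16.8 to 19.6% of penis *Sp7* cells and in 57.9% and 61.5% of forelimb and hindlimb *Sp7* cells. Over all cells *Runx2* had a UMI in 7.04 to 7.30% in penis and 12.0 and 14.4% in limb. Chondrocyte-gated cells were 2.41 to 3.68% of penis *Sp7* cells and 15.8 and 30.7% of limb *Sp7* cells, against 0.987 to 1.21% of all penis cells and 7.73 and 11.1% of all limb cells. In mural-gated cells, which hold pericyte and smooth muscle markers, *Sp7* was called higher in penis (log2 2.43 ± 0.55, edgeR adjusted p = 0.00288). The sums held 75 *Sp7* UMIs in penis and 6 in limb. *Sp7* can pass the filter on low counts through penis there, so the call is a description. That call was lost without penis library 2 (adjusted p = 0.0113) or without the hindlimb (adjusted p = 0.0337).

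*Bglap* (chr3:88383501-88384464) and *Bglap2* (chr3:88377736-88378699), both on the minus strand, encode osteocalcin, a late product of osteoblasts. *Bglap* was at 3.73, 1.61 and 5.94 CPM in the penis libraries, 0.434 in forelimb and 0.350 in hindlimb. *Bglap2* was at 2.35, 1.34 and 3.92 CPM, 0.196 and 0.155. Every penis library was above both limbs, and the spread within penis was wide for both genes. The log2 fold-changes were 3.17 ± 0.49 for *Bglap* and 3.75 ± 0.46 for *Bglap2* (edgeR adjusted p = 0.000528 and 0.000127). *Bglap3*, from the list of other bone genes below and named after its values were seen, was called lower in whole libraries. It had 59 UMIs in penis and 248 in limb (log2 -1.49 ± 0.35, edgeR adjusted p = 0.00453). Bone-gated cells held 21 *Bglap3* UMIs in penis and 1 in limb.

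In bone-gated cells *Bglap* had 64, 59 and 273 UMIs in penis, 3 in forelimb and 0 in hindlimb, and *Bglap2* had 40, 48 and 177, then 1 and 0. Few osteocalcin UMIs were found in the limb cells of this gate, and penis library 3 stood highest. Both were called higher (edgeR adjusted p = 0.000596 and 0.000523). With 3 and 1 limb UMIs they passed the filter on low counts through penis, so these calls add nothing to the counts. The ratio of summed levels, penis over limb, was 123.0 for *Bglap* with a 95% counting interval of 41.8 to 599 and 246.9 for *Bglap2* with one of 43.9 to 9789. Fitted log2 changes of such low limb counts are no bound. Without penis library 3 the fitted *Bglap* change went from 6.89 to 5.62 and without the forelimb to 10.21, and *Bglap2* went from 7.64 to 6.50 and 9.62. Without the forelimb the limb group held 0 UMIs of both genes, so those values do not show stability. The 114 limb *Bglap* UMIs lay in 114 cells, 1 in each, and 63 of them in mesenchyme-gated cells, in which penis and limb *Bglap* levels overlapped. In penis 1 cell of library 1 held 126 of 255 *Bglap* UMIs and 1 of library 3 held 133 of 306.

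*Ibsp* (chr5:104299171-104311469), bone sialoprotein, which seeds mineral crystals, was at 40.4, 29.6 and 32.7 CPM in penis, 11.7 in forelimb and 6.73 in hindlimb. The groups did not overlap, and the log2 fold-change was 1.83 ± 0.23 (edgeR adjusted p = 0.000143). In bone-gated cells alone the levels overlapped, at 333.4, 135.9 and 58.8 CPM in penis, 165.8 in forelimb and 4.87 in hindlimb, and *Ibsp* was not called (adjusted p = 0.288). Leaving out the forelimb, in which 6 cells held all 328 UMIs, made it a call at log2 5.18 (adjusted p = 0.00204).

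Most penis *Ibsp* lay in cells that passed the bone and chondrocyte gates together. There *Ibsp* reached 6209, 4085 and 4440 CPM in penis, 879.8 CPM in forelimb and 74.2 CPM in hindlimb. The penis libraries were all above both limbs, in 14, 14 and 18 cells against 81 and 97. Median depths of these cells were 21664.5, 22886.5 and 17263.5 UMIs in penis against 10971 and 12160 in limb. No doublet caller was run, and the part of depth or doublets in this group was not tested. Single cells set much of these *Ibsp* levels. In penis library 1, 1 cell held 1471 of the 1871 *Ibsp* UMIs, and in forelimb 1 held 367 of 928. The hindlimb level came from 114 UMIs, and 1 hindlimb cell with 642, which also passed the mural gate, is not in it. These cells were too few to test in penis, the least allowed being 20 per library. They were 0.235% of penis cells and held 72.8% of penis *Ibsp* UMIs, and in limb 0.418% of cells held 39.1%. Taking every cell past the bone gate, whatever else it passed, *Ibsp* was called higher in penis by 2.16 ± 0.22 (adjusted p = 4.27e-05). This sum was chosen after seeing the data. In it, with *Mepe* not tested, 7 of the 10 genes were called higher and 0 lower, against 8.07% and 6.31% of 13067 genes.

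*Spp1* (chr5:104435118-104441050), osteopontin, a phosphoprotein that binds mineral and cells, was at 119.6, 126.3 and 74.7 CPM in penis, 18.4 in forelimb and 18.0 in hindlimb. All penis libraries were above both limbs by a log2 fold-change of 2.49 ± 0.22 (edgeR adjusted p = 2.15e-05). In bone-gated cells *Spp1* was at 2297, 3979 and 2589 CPM in penis against 25.3 and 7.91 CPM in limb, a ratio of 169.6 (95% counting interval 132.4 to 220.8). The fitted log2 change was 7.43 ± 0.38 (adjusted p = 3.09e-08), and it was 6.85 without the hindlimb and 8.53 without the forelimb. Over every cell past the bone gate, whatever else it passed, it was smaller at 4.01 ± 0.23 (adjusted p = 8.27e-07). Limb cells past the bone and chondrocyte gates, which that sum takes in, held 645 *Spp1* UMIs in forelimb and 1022 in hindlimb. Few cells carried this RNA. In penis 12, 16 and 15 of the bone-gated cells, 10.7 to 16.3%, had an *Spp1* UMI, and in limb 7 of 190 and 8 of 144. In endothelial-gated cells, taken as a type without a bone program, 1.00 to 3.95% of penis cells and 1.05 and 0.94% of limb cells had an *Spp1* UMI, at median depths of 8986 to 9394 UMIs in penis and 5525 and 7248 in limb. Thinned to 2000 UMIs per cell, the bone-gated shares were 8.73, 9.93 and 12.1% in penis and 1.15 and 0.871% in limb, and the endothelial-gated ones 0.264 to 1.14% and 0.141 and 0.162%.

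Limb *Spp1* lay mostly outside bone-gated cells. Of 5309 limb UMIs, 63 were in bone-gated cells, 31.4% were in cells past the bone and chondrocyte gates, 20.9% in chondrocyte-gated cells and 18.7% in macrophage-gated cells. Chondrocyte-gated limb cells with 2 or more UMIs of *Col10a1*, the collagen of enlarged chondrocytes, numbered 15 in forelimb and 13 in hindlimb. They held *Spp1* at 5129 and 3190 CPM, in 5 of the 15 and in 1 of the 13 cells, against 16.5 and 12.0 CPM in the other chondrocyte-gated cells of each. In penis 2, 2 and 0 chondrocyte-gated cells had 2 or more *Col10a1* UMIs, with *Spp1* at 541 and 652 CPM from 5 and 2 UMIs. The other cells of the gate held *Spp1* at 10.6, 6.74 and 0 CPM, a smaller gap to limb than over the whole gate. Cells past the bone and chondrocyte gates with 2 or more *Col10a1* UMIs numbered 6, 6 and 3 in penis and 19 and 16 in limb. They held *Spp1* at 489, 8309 and 4055 CPM in penis and 2797 and 4529 CPM in limb. Over all chondrocyte-gated cells *Spp1* was at 17.0, 8.95 and 0 CPM in penis, 70.7 in forelimb and 32.2 in hindlimb, and was called lower (log2 -2.50 ± 0.60, adjusted p = 0.00685). Only *Spp1*, *Phex* and *Alpl* of the 10 genes were tested there. Of these 1 was called lower and 1 higher, against 6.64% and 9.40% of 9935 genes. The direction for *Spp1* did not hold when the gates asked for 1 marker fewer (1.09) or 1 more (2.28) or when all barcodes were used (0.16), and the call was lost without penis library 2 or 3 (adjusted p = 0.0625 and 0.0197). The penis against limb difference was larger in bone-gated than in chondrocyte-gated cells by 10.05 ± 0.41 for *Spp1* (interaction, adjusted p = 7.62e-10) and by 6.70 ± 1.54 for *Bglap* (adjusted p = 0.00857). These were 2 calls of 10 genes, with 0 lower and *Mepe* not tested, against 3.46% higher, 2.55% lower and 6.01% called in all of 12158 genes. Chondrocyte-gated cells held 1 *Bglap* UMI in penis and 9 in limb, too few for a test of their own, so the *Bglap* value says little of that gate. The *Bglap* interaction was lost when any 1 of the penis libraries or the hindlimb was left out (adjusted p from 0.0131 to 0.399) and with 1 marker fewer (0.0300) or more (0.0280). With 1 marker more in each gate the *Spp1* interaction was 6.52 and not called (adjusted p = 0.0363), and it was 4.74 with 1 marker fewer and 5.53 with all barcodes, both called. In macrophage-gated cells, in which *Spp1* is also made, it was at 57.8, 9.87 and 5.17 CPM in penis and 68.6 and 46.5 CPM in limb, with overlap and no call (adjusted p = 0.0991). Only *Spp1*, *Phex* and *Alpl* of the 10 genes were tested in that gate, and 0 were called lower, against 6.98% of 11541 genes. Without penis library 1 *Spp1* was called lower (log2 -2.88, adjusted p = 0.000198).

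**Figure D2:**
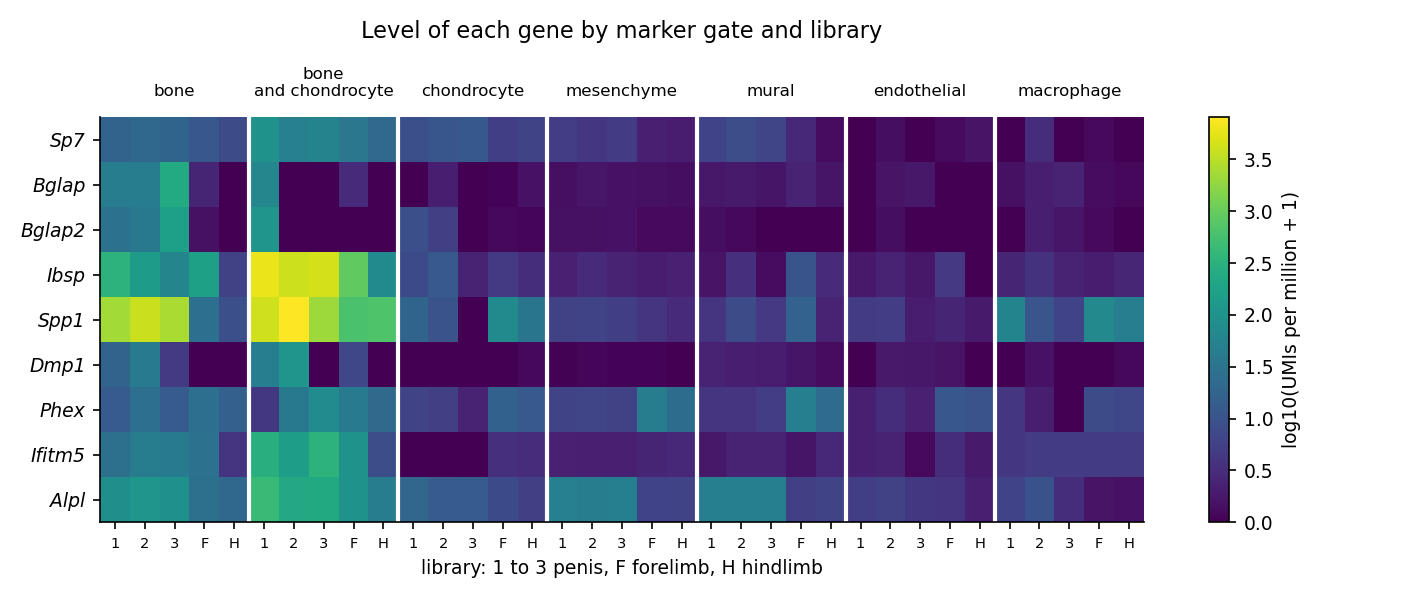
Level of each gene in 7 gates and 5 libraries, as the base 10 log of CPM + 1, where columns 1 to 3 are the penis libraries, F the forelimb and H the hindlimb. *Spp1* is bright in bone-gated penis cells and dark in bone-gated limb cells, *Ibsp* is brightest where the bone and chondrocyte gates meet, and *Alpl* and *Phex* differ between tissues across the mesenchyme and mural gates.

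*Dmp1* (chr5:104202613-104214102), an osteocyte protein that nucleates mineral, was at 2.29, 1.70 and 0.349 CPM in penis, 0.427 in forelimb and 0.303 in hindlimb. Penis library 3 lay between the limbs, and the gene was not called (log2 1.97 ± 0.60, edgeR adjusted p = 0.0177). It was called without penis library 3 (adjusted p = 0.000257). Bone-gated cells held 24, 51 and 4 *Dmp1* UMIs in penis and 0 in both limbs, at least 24.5-fold higher against a floor of 3 counts over the limb group. Most of that bound rests on penis library 2, with 51 of the 79 UMIs. With no limb UMI the gene entered this fit through penis alone, so its call there (adjusted p = 0.00176, lost without the forelimb at 0.0119 and with 1 marker more in each gate at 0.0582) adds nothing to that bound. Over every cell past the bone gate it was also called (log2 4.54 ± 0.90, adjusted p = 0.00247), but not without the hindlimb (0.0184), with all barcodes (0.0134) or with 1 marker more (0.0235). In 1 cell of penis library 1, past the chondrocyte and mural gates with 451 *Col10a1* UMIs, lay 97 of that library's 157 *Dmp1* UMIs. Of 106 limb *Dmp1* UMIs, 47 (44.3%) were in muscle-gated cells.

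*Mepe* (chr5:104325329-104338611), an osteocyte phosphoprotein, had 1, 74 and 0 UMIs in the penis libraries and 0 in both limbs. Of the 74, 72 lay in 1 bone-gated cell of 8742 UMIs. That cell also held 925 *Spp1*, 54 *Ibsp*, 22 *Phex*, 16 *Dmp1*, 3 *Sp7* and 27 *Runx2* UMIs. The summed penis level was at least 38.7-fold above a floor of 3 limb counts, a value that rests on that cell.

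*Alpl* (chr4:137741733-137796384, minus strand), tissue-nonspecific alkaline phosphatase, which removes the mineralization inhibitor pyrophosphate, was at 41.0, 36.7 and 38.4 CPM in penis, 5.39 in forelimb and 5.18 in hindlimb. The groups lay far apart with little spread, at a log2 fold-change of 2.81 ± 0.07 (edgeR adjusted p = 4.03e-08). Unlike the matrix genes, its RNA was spread over many cells: 71.5% of penis *Alpl* UMIs were in mesenchyme-gated cells, which were 57.6% of penis cells. There it was at 48.6, 42.1 and 46.9 CPM in penis against 5.13 and 5.42 CPM in limb, a log2 change of 3.10 ± 0.08 (adjusted p = 9.98e-09), with a UMI in 25.1 to 28.0% of penis cells and 2.71 and 2.96% of limb cells. Thinned to 2000 UMIs per cell these shares were 7.52 to 8.40% and 1.09 and 1.15%. In this gate, with *Dmp1* and *Mepe* not tested, 3 of the 10 genes were called higher and 1 lower, against 12.4% and 13.0% of 19989 genes. The others called higher were *Sp7* and *Bglap2*. *Bglap2* was at 0.507, 0.490 and 0.572 CPM in penis and 0.260 and 0.235 CPM in limb, and its call (adjusted p = 0.00806) was lost when any 1 of the 5 libraries was left out (adjusted p from 0.0184 to 0.0550).

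In mural-gated cells *Alpl* was at 46.8, 47.9 and 48.4 CPM in penis against 4.44 and 5.42 CPM in limb, with no overlap (log2 3.18 ± 0.20, edgeR adjusted p = 7.32e-08). Only *Sp7*, *Spp1*, *Phex* and *Alpl* of the 10 were tested there, and *Alpl* was 1 of 2 called higher, against 9.54% of 13570 genes. In bone-gated cells, in which penis *Alpl* was at 86.8, 111.6 and 91.4 CPM and limb *Alpl* at 26.8 and 19.5 CPM, the log2 change was 2.05 ± 0.20 (adjusted p = 6.50e-06), and 0.71 with 1 marker more in each gate, where the call was lost (adjusted p = 0.0323). Of the 10 genes only *Spp1*, *Phex* and *Alpl* passed the low-count filter in endothelial-gated cells. There 0 were called higher, against 7.20% of 13484 genes tested, and *Alpl* did not pass the call (log2 1.00 ± 0.45, adjusted p = 0.0837). In chondrocyte-gated cells its call (1.42 ± 0.37, edgeR adjusted p = 0.00975) came from 34 penis and 124 limb UMIs. It was lost when any 1 of the 5 libraries was left out (log2 1.08 to 1.72). In macrophage-gated cells only *Spp1*, *Phex* and *Alpl* of the 10 were tested, and *Alpl* was the 1 called higher, against 11.3% of genes. That call (3.25 ± 0.62, edgeR adjusted p = 0.00163) came from 29 penis and 10 limb UMIs and was lost without the forelimb or the hindlimb. Leaving out each library in turn gave log2 2.73 to 3.54 there. *Alpl* can pass the filter on low counts through penis in chondrocyte-gated and macrophage-gated cells, so these calls are descriptions. The part of free RNA from other cells in the macrophage-gated call was not tested.

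*Phex* (chrX:157162075-157415312, minus strand), an endopeptidase of osteoblasts and osteocytes whose loss causes phosphate wasting, went the other way. It was at 4.79, 5.27 and 4.54 CPM in penis, 31.3 in forelimb and 18.3 in hindlimb, with no overlap and a log2 fold-change of -2.41 ± 0.21 (edgeR adjusted p = 1.94e-05). In bone-gated cells the groups overlapped and *Phex* was not called, at 12.3, 25.8 and 12.7 CPM in penis and 25.8 and 14.6 CPM in limb (log2 -0.27 ± 0.35, adjusted p = 0.574). It was called lower in mesenchyme-gated cells (5.36, 5.54 and 4.86 CPM against 42.2 and 23.2, log2 -2.65 ± 0.23, adjusted p = 8.10e-06) and in mural-gated cells (2.95, 2.91 and 4.09 CPM against 47.1 and 22.02, log2 -3.50 ± 0.33, adjusted p = 2.82e-06). In endothelial-gated cells, a type without a bone program, it was also called lower (1.23, 2.30 and 1.26 CPM against 10.4 and 9.07, log2 -2.59 ± 0.36, adjusted p = 1.93e-05). There *Phex* lay below its whole-library level in every library, with a UMI in 21 of 380 and 24 of 320 limb cells and in 1.05 to 1.87% of penis cells, and the part of free RNA in this call was not tested. Of the members tested, *Phex* was the 1 called lower in each of these, against 7.16% of genes in mural-gated and 6.79% in endothelial-gated cells. Those tested were only *Sp7*, *Spp1*, *Phex* and *Alpl* in mural-gated cells, and *Spp1*, *Phex* and *Alpl* in endothelial-gated cells. *Phex* had 40 penis and 203 limb UMIs in mural-gated cells, and 22 and 63 in endothelial-gated cells. It can pass the filter on low counts through limb in these gates, so the calls there are descriptions. Of 7190 limb *Phex* UMIs, 63.9% were in mesenchyme-gated cells, which were 49.1% of limb cells. A *Phex* UMI was in 15.5% of forelimb and 10.8% of hindlimb mesenchyme-gated cells, against 3.32 to 3.70% in penis.

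*Ifitm5* (chr7:140948958-140950291, minus strand), a small membrane protein of mineralizing osteoblasts, was at 3.07, 2.76 and 4.52 CPM in penis, 3.10 in forelimb and 2.61 in hindlimb. These overlapped, and it was not called (log2 0.19 ± 0.19, edgeR adjusted p = 0.376). Where the bone and chondrocyte gates met it was at 288.7, 155.4 and 337.7 CPM in penis against 95.8 and 7.81 CPM in limb, and these cells held 40.1% of penis but 13.6% of limb *Ifitm5* UMIs. The hindlimb level rested on 12 UMIs, and 1 hindlimb cell with 105, which also passed the mural gate, is not in it. Penis cells of this group were deeper than limb ones, as given above, and the part of depth or doublets in the *Ifitm5* levels was not tested. In bone-gated cells it was at 26.6, 44.0 and 38.9 CPM in penis against 28.3 and 3.04 CPM in limb, with overlap and no call (adjusted p = 0.0792), and with 1 marker more in each gate it was called lower (log2 -1.57, adjusted p = 0.00173). Over every cell past the bone gate it was called higher (1.15 ± 0.29, adjusted p = 0.00856), a call lost without penis library 1 or 3 or the hindlimb (adjusted p = 0.0139, 0.0190 and 0.0597), with all barcodes (0.332) or with 1 marker more (0.227).

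**Figure D3:**
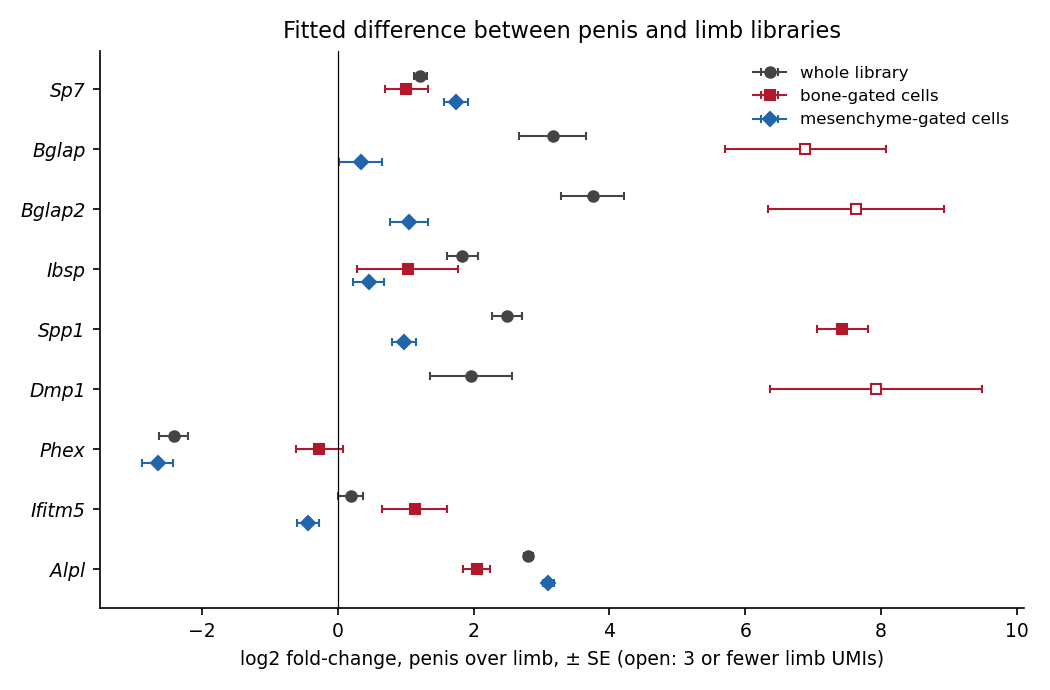
Log2 fold-change of penis over limb for each gene, with its standard error, summed over the whole library and in bone-gated and mesenchyme-gated cells. Open points mark fits in which the limb sums held 3 or fewer UMIs, and *Mepe* is left out. *Spp1* moves from 2.49 to 7.43 between the whole library and bone-gated cells, while *Phex* moves from -2.41 to -0.27.

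How far a gene's RNA sat in few cells split the 10 genes. The 10 highest cells held 80.4 to 94.5% of *Ibsp* UMIs in each library, 91.1 to 92.2% of *Spp1* UMIs in penis and 55.5 and 67.4% in limb. For *Alpl* they held 5.92 to 6.71% in penis and 13.0 and 14.7% in limb, and for *Phex* 22.6 to 23.7% in penis and 3.13 and 4.18% in limb. This share can rise where a gene has few UMIs. *Phex* had 234 to 359 UMIs per penis library and 4474 and 2716 in limb, and *Dmp1* had 18 in penis library 3, in 12 cells. *Sp7* lay with the spread genes at 10.5 to 18.5%. Much of the matrix genes' whole-library level lay in their 10 highest cells. The highest 10 are a larger share of a penis library (5708 to 7085 cells) than of a limb library (20514 and 22057), so leaving them out takes a larger share of penis cells. Without the 10 highest cells of each library, *Spp1* was at 9.31, 11.3 and 6.38 CPM in penis and 8.22 and 5.87 CPM in limb, which overlap. *Ibsp* fell to 2.23, 3.73 and 1.99 CPM against 1.75 and 1.32 CPM, still apart, and *Bglap* to 0.527, 0.485 and 0.544 CPM against 0.365 and 0.283 CPM. *Alpl*, at 38.3, 34.7 and 36.1 CPM against 4.69 and 4.43 CPM, hardly moved.

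**Figure D4:**
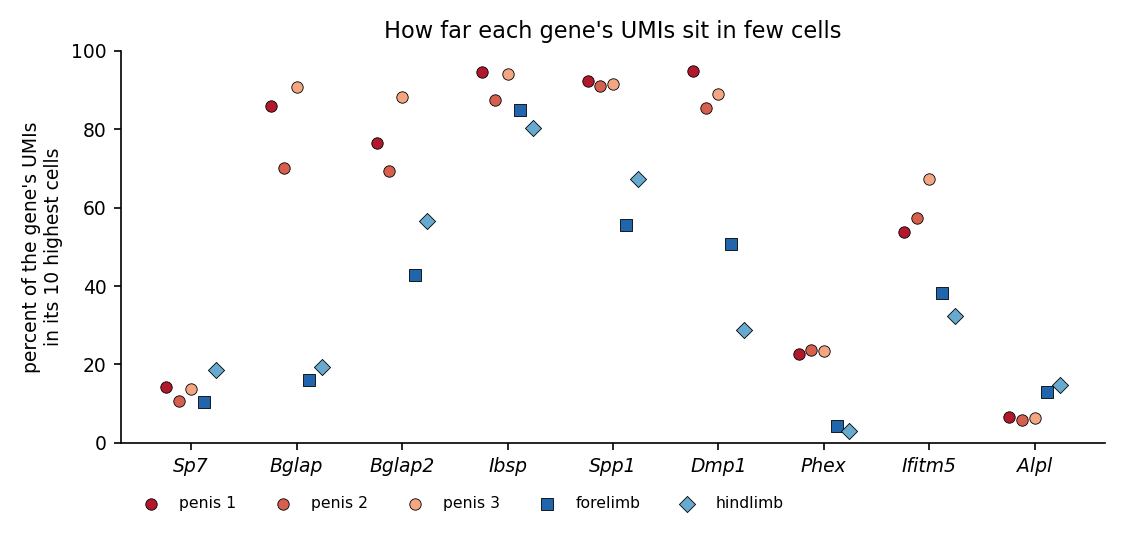
Percent of each gene's UMIs that lay in the 10 cells with the most of them, for each library. *Ibsp* lies at 80.4% or more in all 5 libraries, *Bglap*, *Bglap2*, *Spp1* and *Dmp1* lie at 69.2% or more in the penis libraries and lower in limb, and *Alpl* and *Sp7* lie at 18.5% or less in all 5. The percent can rise where a gene has few UMIs, as for *Dmp1* with 18 in penis library 3. *Mepe* is left out.

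Most cells held none of the 10 genes: 69.3 to 72.6% of penis cells and 82.3 and 84.4% of limb cells. Cells with 4 or more numbered 22, 24 and 21 in penis, 19 in forelimb and 10 in hindlimb, or 0.324, 0.339 and 0.368% against 0.0861 and 0.0487% of cells. Thinned to 2000 UMIs per cell the shares were 0.152, 0.0811 and 0.127% against 0.0301 and 0.00472%, so the penis libraries stayed above both limbs at equal depth. Their median UMIs, 13866 to 18169 in penis and 11524 and 14898 in limb, were above those of their libraries. Of these cells 21, 20 and 20 in penis and 17 and 8 in limb passed the bone gate. They held 88.9 to 96.7% of penis *Ibsp* and 80.4 to 94.2% of penis *Spp1* UMIs, but 5.46 to 7.10% of penis *Alpl* UMIs.

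The 67 penis cells with 4 or more of the genes can be described by *Col2a1*, the collagen of cartilage, a gene outside the 10. The 24 with 10 or more *Col2a1* UMIs were deeper, at a median of 28019.5 UMIs against 12535 in the other 43, and the part of depth in the counts below was not tested. In the 24 with 10 or more *Col2a1* UMIs, *Ibsp* was found in 23, *Spp1* in 24, *Alpl* in 23, *Ifitm5* in 19 and *Col10a1* in 20. *Bglap* was found in 3 of these and *Bglap2* in 2. In the 43 with fewer *Col2a1* UMIs, *Bglap* was found in 22, *Bglap2* in 24, *Spp1* in 33, *Ibsp* in 27, *Alpl* in 35, *Ifitm5* in 22 and *Col10a1* in 4. *Mmp13*, a collagenase of late osteoblasts and enlarged chondrocytes, was found in 25 of the 43 and 4 of the 24. Among these 67 cells osteocalcin RNA was found mostly in those with fewer *Col2a1* UMIs. The cells were picked by 4 or more of these same 10 genes, with the osteocalcin copies counted as 2. The part of that choice in the split was not tested. Of the 29 limb cells with 4 or more of the genes, *Alpl* was in 28, *Sp7* in 23, *Ibsp* in 22, *Ifitm5* in 20 and *Spp1* in 18, while *Bglap* and *Bglap2* were each in 1.

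In pairs, the osteocalcin copies were found together more often than their shares of all cells in both tissues, and the part of their shared sequence in this was not tested. Of 124 penis *Bglap* cells 26 (21.0%) also had *Bglap2*, against 0.592% of all penis cells, and of 114 limb *Bglap* cells 3 (2.63%) did, against 0.108% of all limb cells. Thinned to 2000 UMIs per cell, which gives more weight to cells rich in the first gene, these were 31.1% against 0.188% in penis and 0.575% against 0.0332% in limb. *Dmp1* cells of penis had *Ibsp* in 18 of 56 (32.1%) against 1.51% of all cells. *Ibsp* cells had *Spp1* in 25.8, 24.6 and 23.2% in penis against 15.3% in forelimb and 9.84% in hindlimb. *Spp1* was in 4.29% of all penis and 2.19% of all limb cells, and thinned to 2000 UMIs the share in *Ibsp* cells was 38.2% against 1.35% of all cells in penis and 13.4% against 0.972% in limb. *Sp7* cells had *Alpl* in 38.9 to 46.4% in penis, against 19.3 to 21.4% of all cells, and in 19.1 and 18.2% in limb, against 2.48 and 2.50% of all cells. Thinned, the *Sp7* shares were 16.1% against 6.50% in penis and 9.63% against 1.01% in limb. The limb share was the lower of the 2 but stood further above its background, also at equal depth. Cells of 1 library are not replicates, so these shares carry no test.

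**Figure D5:**
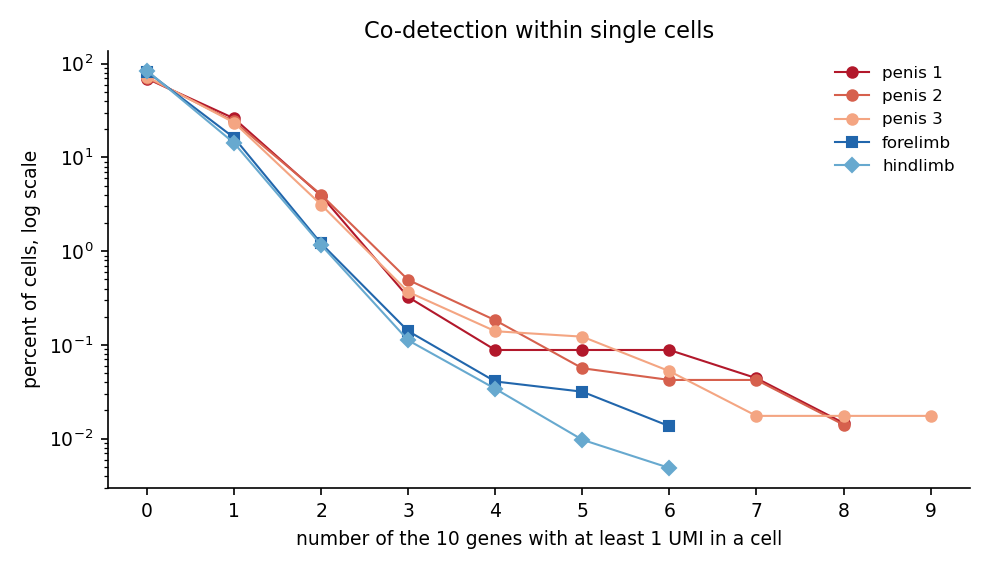
Percent of cells, on a log axis, that held at least 1 UMI of 0 to 9 of the 10 genes, for each library. From 1 gene on the penis lines lie above the limb lines up to 6 genes, and cells with 7 or more appear in the penis libraries alone.

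Of 42 other bone genes, listed with earlier results of these data known, 32 were tested in bone-gated cells: 20 were called higher in penis and 1 lower, against 9.15% and 6.92% of genes, with a median log2 fold-change of 1.30 against 0.02 over all genes tested. The other 10 did not pass the filter on low counts, which a gene can pass through the group where it is high, so the counts of this list and of the osteoclast list are descriptions. In whole libraries 19 of 41 were called higher and 3 lower, against 13.0% and 11.5% of genes, with a median of 0.89 against 0.01. In mesenchyme-gated cells 18 of 41 were called higher and 4 lower (12.4% and 13.0% of genes), with a median of 0.40. In macrophage-gated cells 8 of 22 were called higher and 0 lower (11.3% and 6.98% of genes), among them the collagen and matrix genes *Col1a2*, *Sparc*, *Postn* and *Bgn*, named after their values were seen. The part of free RNA from other cells in these calls was not tested. The largest in bone-gated cells was *Mmp13*, with 242, 352 and 186 UMIs in penis and 0 in both limbs, at least 242-fold higher against a floor of 3 counts. Limb *Mmp13* was not absent next to this gate: cells past the bone and chondrocyte gates held 47 UMIs in forelimb and 79 in hindlimb, and over every cell past the bone gate the log2 change was 3.64 ± 0.28 (edgeR adjusted p = 5.21e-06). *Ostn*, osteocrin, a secreted peptide of osteoblasts, was at 73.8, 135.1 and 46.1 CPM in penis and 4.04 and 2.43 CPM in limb (log2 4.67 ± 0.53, edgeR adjusted p = 2.37e-05). *Vdr*, the vitamin D receptor, was at 27.3, 18.2 and 46.1 CPM against 0.506 and 2.43 CPM (4.36 ± 0.57, adjusted p = 7.94e-05). *Dkk1*, an inhibitor of WNT signaling, was lower at 1.37, 0.759 and 1.81 CPM against 21.7 and 15.8 CPM (-3.79 ± 0.47, adjusted p = 4.52e-05). The low side rested on 8 and 4 limb UMIs for *Ostn*, 1 and 4 limb UMIs for *Vdr* and 2, 1 and 2 penis UMIs for *Dkk1*. These genes can pass the filter through the group where they are high, so their calls are descriptions. Over every cell past the bone gate *Vdr* was higher by 1.83 ± 0.33 (adjusted p = 0.00141), *Dkk1* was at -1.54 ± 0.47 and not called (adjusted p = 0.0236), and 18 of the 38 bone genes tested were called higher and 0 lower (8.07% and 6.31% of genes). In whole libraries the largest were *Ostn* (5.05 ± 0.33, adjusted p = 3.30e-06), *Car3*, a carbonic anhydrase (-4.13 ± 0.47, adjusted p = 8.30e-05), *Dkk1* (-3.77 ± 0.19, adjusted p = 9.78e-07) and *Dlx6*, a homeobox factor (3.62 ± 0.09, adjusted p = 4.90e-08). *Car3* stood the other way in bone-gated cells, where it was not tested. It had 10, 48 and 7 UMIs there in penis, the 48 in 2 cells, and 3 and 0 in limb. *Car3* was not called over every cell past the bone gate (1.54 ± 0.65, edgeR adjusted p = 0.0765). Of 8 osteoclast genes, 5 passed the filter in macrophage-gated cells and those 5 were called higher in penis, against 11.3% of genes. Macrophage-gated cells with 2 or more of the 8 numbered 7, 10 and 2 in penis, 18 in forelimb and 15 in hindlimb. Picked by these same genes, they held *Ctsk* at 5518, 2412 and 4520 CPM in penis and 164 and 576 CPM in limb. In the other macrophage-gated cells *Ctsk* was at 24.7, 24.1 and 14.4 CPM against 10.3 and 12.4 CPM, and *Mmp9* at 36.5, 31.9 and 50.1 against 2.82 and 2.16 CPM. In whole libraries 2 of the 8 were called higher and 1 lower, near the 13.0% and 11.5% of all genes (*Calcr*, the calcitonin receptor, named after its values were seen, -1.92 ± 0.19, adjusted p = 3.61e-05), and in mesenchyme-gated cells 1 of 5 was called higher and 3 lower, against 12.4% and 13.0% of genes.

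The genes whose levels most resembled the mean of the 10 over 61 gate-by-library sums were *Mmp13* (Pearson r = 0.82), *Syt6* (0.80), *Podnl1* (0.76), *Frzb* (0.70), *Omd* (0.69), *Tnn*, *Panx3* and *Kcnmb2* (each 0.68). The sums share libraries, cells of like depth and gates, and 4 of these genes are in the list of 42. These values are a description across sums and carry no p.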

How the data were processed

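Single cells of 5 libraries were analysed, 3 of penis, 1 of forelimb and 1 of hindlimb. The authors deposited matrices of UMI counts per gene and cell barcode, made with Cell Ranger 7.0.0 on mm10 per the labels. These counts are raw, and whether intron reads were counted is not given in the sources used here. UMIs come from 3′ ends of transcripts, so levels are not compared between genes.

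Barcodes were kept with 500 to 6000 genes and at most 5% mitochondrial UMIs in penis, with 100 to 9000 (forelimb) or 9500 (hindlimb) genes and at most 10% in limb, and with a ratio of log10 genes to log10 UMIs of at least 0.8, after the study's methods. The study words the limits on genes as reads per cell, and they were read here as genes detected. UMIs kept were 51529854 to 68417925 per penis library, 142718533 in forelimb and 148752710 in hindlimb. Chondrocyte-gated cells held *Col2a1* and at least 5 of 9 markers, endothelial- and mural-gated cells at least 4 of 10 and macrophage-gated cells at least 5 of 10. One marker of the bone gate is not reported here. The members, gates and lists were chosen with earlier results of these data known. Of 166 list and gate genes, 1 was not matched to exactly 1 row. Cells are not replicates, so counts were summed per library and gate and tested with edgeR 4.0.16 in R 4.3.3 (TMM, filterByExpr, quasi-likelihood F test), 3 penis libraries against 2 limb libraries taken as 1 group. The interaction had library as a block. The code was tested on simulated data. Counting intervals and floors (3 counts, 95%) cover counting error only, and intervals of shares are exact binomial ones. Thinning gives the exact expected share at 2000 UMIs per cell, leaving out shallower cells. Named genes were the 10 members, of the 42 the 4 with the largest absolute change among those called in bone-gated cells and in whole libraries, and the 8 genes of highest correlation. Those 8 needed at least 100 UMIs and used log2(CPM + 1). Alternatives were DESeq2 1.42.0, no TMM, no filter, all barcodes, gates with 1 marker fewer or more, other thinning depths and each library left out. Gene positions are from GENCODE in GRCm38, upstream sequences from RefSeq. Upstream sequences were found for 8 of the 10 genes. Python 3.11.15, scipy 1.17.1 and pandas 2.3.3 were used.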

Additional observations from a re-analysis of the deposited data

Results flagged for a closer look

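The penis against limb difference differed between bone-gated and chondrocyte-gated cells, by the test of that difference itself, for *Spp1* (log2 10.05) and *Bglap* (6.70). The *Spp1* call was lost with 1 marker more in each gate (edgeR adjusted p = 0.0363). The *Bglap* call was lost without any 1 of the penis libraries or the hindlimb (adjusted p up to 0.399) and rests on 1 penis and 9 limb UMIs in chondrocyte-gated cells.

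Barcodes outside the cell filter, which were used only in the alternative with all barcodes, also held 4 or more of the 10 genes: 15 in penis library 1, 19 in penis library 2 and 9 in penis library 3, and 4 in the forelimb library, more than the 3 that a count of 0 allows, and 3 in the hindlimb library, which is not more. In penis 9, 9 and 6 of them had more genes than the upper limit of the filter. The series has no control libraries to set these against.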

How the results depend on the processing

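Of 577 refits of single genes, 512 kept their side of the call, 39 lost a call and 21 gained a call. In the other 5 the direction turned, with a call in at least 1 of the 2 fits compared. The 512 include refits whose direction turned while neither fit was called. Of 208 refits of counts and shares, 167 gave a count within 1.5 times the main one, or a share difference of the same sign. The share of bone-gated cells turned direction with 1 marker fewer (-0.652 points). The 5 refits counted as turned were *Ifitm5* in bone-gated cells with 1 marker more (-1.57), the *Ibsp* interaction with all barcodes (-4.68) and *Spp1* in chondrocyte-gated cells with all barcodes (0.16), 1 marker fewer (1.09) or 1 more (2.28). Turns while neither fit was called are not among these. For example, leaving out 1 library gave log2 -1.92 to 1.61 for *Spp1* in mural-gated cells and -0.716 to 0.213 for *Phex* in bone-gated cells. The causes were not tested. With 1 marker more, 3 genes in place of 5 were called higher in bone-gated cells and 1 in place of 0 lower, 0 in place of 1 lower in chondrocyte-gated, 1 in place of 2 higher in mural-gated, 1 in place of 0 lower in macrophage-gated cells and 0 in place of 2 in the interaction, and 3 in place of 7 had thinned bone-gated shares above both limbs. With 1 marker fewer, 0 were called either way in chondrocyte-gated cells, 1 in place of 0 higher in endothelial-gated, 2 in place of 1 lower in mural-gated cells and 1 in the interaction, and 0 in place of 1 had thinned bone-gated shares below both limbs. With all barcodes, 2 were called higher and 0 lower in chondrocyte-gated cells and 1 lower in the interaction. Without the filter on low counts, 2 were called higher and 2 lower in chondrocyte-gated and 2 lower in macrophage-gated cells. Chondrocyte-gated cells had 2 lower without TMM and 0 with DESeq2. At 4000 UMIs, 2 in place of 1 had thinned shares of all cells below both limbs and 6 in place of 7 above. At 1000 UMIs, 0 in place of 1 had bone-gated shares below and 8 in place of 7 above. Leaving out each library in turn gave 0 higher and 0 to 1 lower in chondrocyte-gated cells, 1 to 2 higher and 1 to 3 lower in mural-gated cells, 0 to 1 higher and 0 to 2 lower in macrophage-gated cells and 1 to 4 higher in the interaction. No paired analysis was possible because the labels tie no penis library to a limb library, and forelimb and hindlimb have 1 library each, so leaving out a limb rests on 1 library assumed to vary like the others. Depth limits the osteocalcin genes, *Dmp1* and *Mepe*, with few UMIs outside a handful of cells.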
